A study of Arabidopsis thaliana with 12 samples.

Results

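The genes described here read higher in rosettes of the Arabidopsis thaliana atx1 mutant than in wild type, whether or not the plants had water. A probe set, the group of oligonucleotides that reports a transcript on the array, was a member where the mean log2 signal of atx1 lay at least 1.5 above the wild-type mean in both water states. Of 22746 probe sets, 248 met these differences, and 5 of them were left out by a list of probe sets in the rule, which left 243 members. The members were thus chosen by their differences between atx1 and wild type, which are given below as a description with no test.

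RNA came from vegetative rosettes of plants treated at 4 weeks of age and was measured on Affymetrix ATH1 arrays, 12 in all. The atx1 mutant, the MYO-OX line and wild type were each taken under water deficit and with continued watering, which made 6 groups of 2 arrays, labelled as biological replicates. Water deficit meant that water was withheld from the soil until the relative water content had dropped to 65%. MYO-OX takes its name from overexpression of MYO1, a homolog of myotubularin. The labels give Columbia-0 for wild type only, and they name neither the allele of atx1 nor the promoter or transgene of MYO-OX. A difference of genetic background in either line cannot be told apart from the mutation or the transgene.

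ATX1 (ARABIDOPSIS TRITHORAX 1) is a histone methyltransferase of the Trithorax family, whose members mark the chromatin of active genes, and it is known as a regulator of flower development and of responses to water loss. Myotubularins are phosphatases of phosphoinositide lipids. A gene that reads higher without ATX1 need not be a direct target of it. The levels of ATX1 and MTM1 were not analysed here.

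Levels are log2 signals, so a difference of 1 is a doubling. They are normalised intensities with no call of detection, and they do not allow the level of a probe set to be set against that of another. The number of arrays limits the precision. Replicates of a group correlated at 0.928 to 0.987 across all probe sets. The rosette leaf marker RCA, for rubisco activase, was bright in every group, at means of 12.27 to 13.41. Its lowest mean was in watered MYO-OX, where the replicates lay far apart (SD 2.05, n = 2). None of the flower, pollen or seed markers had a probe set named for it alone, so these organs were not checked. The root marker PYK10 had means of 7.27 in atx1, 7.72 in MYO-OX and 7.85 in wild type under water deficit, and of 6.69 in atx1, 10.08 in MYO-OX and 10.57 in wild type with water, lower in atx1 than in either other genotype. GAPDH controls at the 3' end of the transcript read above those at the 5' end, a gap that widens as RNA degrades. The gap was 1.47 ± 0.39 in atx1, 0.89 ± 0.21 in MYO-OX and 0.57 ± 0.02 in wild type under water deficit (SD, n = 2). In watered plants it was 0.72 ± 0.34 in atx1, 0.77 ± 0.46 in MYO-OX and 0.73 ± 0.19 in wild type. The hybridization controls averaged 9.85 in atx1, 9.19 in MYO-OX and 8.64 in wild type under water deficit, and 8.89 in atx1, 8.87 in MYO-OX and 8.48 in wild type with water. These controls ran highest in atx1 under water deficit, and their part in the differences of the members was not tested.

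The annotation named a gene for 123 of the 243 members, 26 with a symbol and 97 by locus only. Another 6 had several genes and 114 were not listed, and members of these kinds are given by probe set. Under water deficit the members read a median of 2.56 higher in atx1 than in wild type (range 1.5 to 5.44), beside a median difference of 0.01 over all probe sets. In watered plants the median was 2.02 (range 1.5 to 5.17), beside 0.04 over all probe sets. The smaller of both differences was at least 3 for 27 members, from 2 to 3 for 80 and under 2 for 136. The gap between atx1 and wild type was wider under water deficit for 169 members and wider in watered plants for 74. The water-deficit gap minus the watered gap had a median of 0.33 over the members and -0.01 over all probe sets. The arrays in these counts also chose the members, and nothing is read from them.

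**Figure D1:**
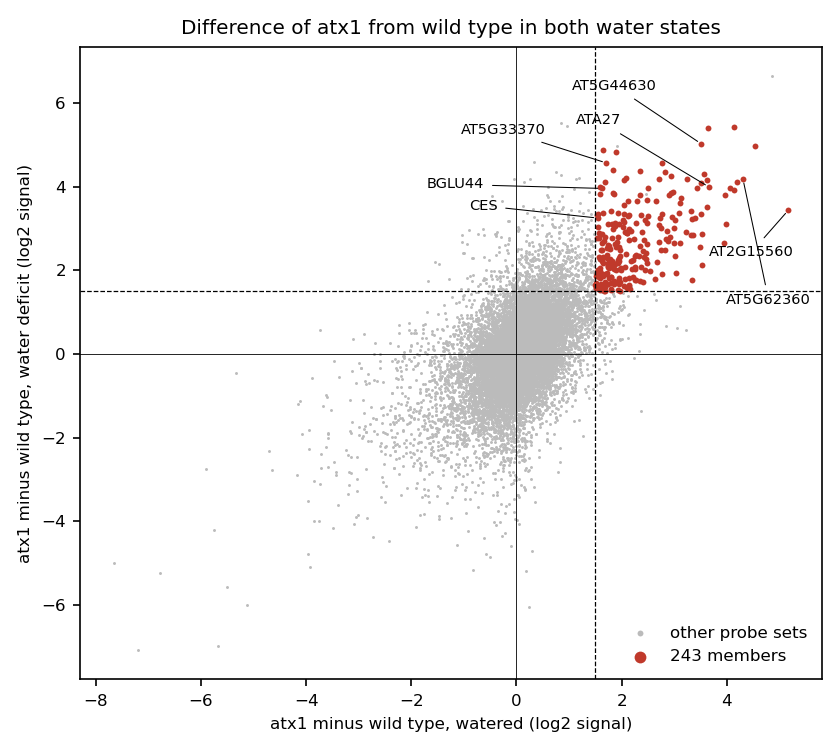
Difference of the atx1 mean from the wild-type mean (log2 signal) in watered plants, on the horizontal axis, and under water deficit, on the vertical axis, for each probe set, with the members in red and the 1.5 thresholds dashed. Most members lie close to a threshold, while AT2G15560 stands out at 5.17 in watered plants and AT5G44630 at 5.03 under water deficit. Grey points beyond both thresholds were left out by the list.

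On single arrays the members' median level was 8.03 and 7.90 in atx1, 5.197 and 5.199 in MYO-OX and 4.85 and 5.34 in wild type under water deficit. The watered arrays had medians of 7.97 and 7.81 in atx1, 5.54 and 5.40 in MYO-OX and 5.30 and 5.62 in wild type. Every atx1 array thus had a higher members' median than every array of the other genotypes. Under water deficit 242 members had both atx1 arrays above both wild-type arrays, and 32.9% of all probe sets did. In watered plants 241 members did, against 23.6% of all probe sets, and 240 did in both water states, against 14.2%. The exceptions were psbB, 267094_at and 246425_at. These counts follow from the choice of members. For 192 members the lower atx1 array stood at least 1 above the higher wild-type array in both water states, and for 48 it stood at least 2 above. Over all 22746 probe sets these numbers were 247 and 50. The rule favours such gaps too, and nothing is read from these counts.

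In wild type the members were not all dim. The median member's wild-type mean was at or above that of 40.9% of all probe sets under water deficit and 43.5% in watered plants. For 29 members wild type lay in the lowest 25% of all probe sets in both states. Levels that low were not shown to lie above background, and folds of those members are not exact.

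**Figure D2:**
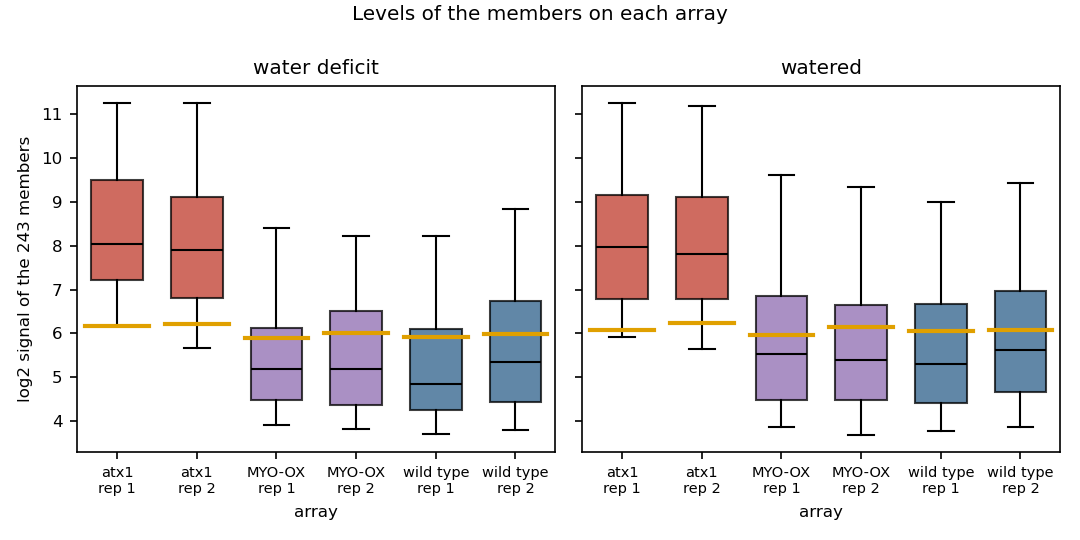
Log2 signal of the 243 members on each of the 12 arrays, with the median and quartiles as boxes, whiskers at the 5th and 95th percentiles and the median of all probe sets as an orange bar. The atx1 boxes lie higher, with medians of 7.81 to 8.03, while MYO-OX and wild-type medians run between 4.85 and 5.62, below the median of all probe sets.

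The smaller of both differences was largest for 263174_at, a probe set without a listed gene, although other members differed more in a single water state. It read 13.74 and 13.71 in atx1, 8.93 and 8.33 in MYO-OX and 8.43 and 9.06 in wild type under water deficit. In watered plants it read 14.07 and 14.09 in atx1, 9.23 and 9.92 in MYO-OX and 9.67 and 9.43 in wild type. The atx1 arrays lay close together in each state, and MYO-OX overlapped wild type. The difference from wild type was 4.98, or 31.7-fold, under water deficit and 4.53, or 23.0-fold, in watered plants.

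AT5G44630 and AT3G12000, both named by locus only, were near the floor of the signal in MYO-OX and wild type. AT5G44630 read 9.07 and 8.77 in atx1, 4.02 and 3.76 in MYO-OX and 4.01 and 3.76 in wild type under water deficit. Its watered levels were 7.57 and 7.32 in atx1, 4.23 and 4.03 in MYO-OX and 4.09 and 3.78 in wild type. MYO-OX and wild type overlapped in both states, and atx1 was higher under water deficit than in watered plants. AT3G12000 gave 7.91 and 8.35 in atx1, 3.88 and 3.95 in MYO-OX and 3.79 and 3.86 in wild type under water deficit. In watered plants it gave 7.21 and 7.48 in atx1, 3.74 and 3.66 in MYO-OX and 3.70 and 3.85 in wild type. In wild type no more than 15.5% of probe sets read as low as AT5G44630, in either state, and no more than 11.7% as low as AT3G12000.

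AT2G15560 had the largest watered difference, 5.17, and a smaller one of 3.44 under water deficit. It read 8.26 and 9.55 in atx1, 5.76 and 5.57 in MYO-OX and 5.56 and 5.37 in wild type under water deficit. Its watered levels were 10.04 and 10.79 in atx1, 5.29 and 5.36 in MYO-OX and 5.17 and 5.32 in wild type. The atx1 arrays were lower under water deficit, whereas MYO-OX and wild type stayed in a narrow range. AT1G50290 differed by 4.17 under water deficit and 3.63 in watered plants, and AT1G02300 by 3.81 under water deficit and 3.97 with water. Among the probe sets not named by a gene, 265007_s_at differed by 5.44 under water deficit and 4.14 with water, and 259124_at by 4.13 and 4.19 in these states.

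Among the 26 members with a symbol, ATA27, SWEET8, SWEET9 and CES are known from reproductive organs, as is HLL, described further on. ATA27 (AT1G75940), also called BGLU20, is an anther gene for a protein of the beta-glucosidase family. Under water deficit its level was 8.37 and 8.72 in atx1, 4.21 and 4.76 in MYO-OX and 3.76 and 5.34 in wild type. Watered plants had 8.55 and 8.68 in atx1, 4.08 and 5.85 in MYO-OX and 3.65 and 6.25 in wild type. The atx1 arrays nearly coincided and lay above all others, while the other genotypes overlapped and spread widely between replicates. The difference from wild type was 3.998 under water deficit and 3.66 in watered plants.

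SWEET8 (AT5G40260) encodes a sugar transporter needed for the pollen wall, and SWEET9 (AT2G39060) a sucrose transporter of nectaries. SWEET8 read 7.05 and 7.87 in atx1, 4.85 and 5.32 in MYO-OX and 4.87 and 5.59 in wild type under water deficit, a difference of 2.23 from wild type. In watered plants its difference was 1.78. SWEET9 read 7.95 and 6.41 in atx1, 4.16 and 3.84 in MYO-OX and 3.92 and 3.83 in wild type under water deficit. With water it read 6.52 and 5.61 in atx1, 3.88 and 3.93 in MYO-OX and 3.94 and 3.94 in wild type. Only the atx1 arrays of SWEET9 left the narrow range around 4. CES (AT1G25330), or CESTA, is a transcription factor of brassinosteroid responses that also acts in the carpel. It read 6.41 and 7.45 in atx1, 3.98 and 3.58 in MYO-OX and 3.68 and 3.68 in wild type under water deficit. Its watered levels were 5.89 and 4.91 in atx1, 3.76 and 3.82 in MYO-OX and 3.83 and 3.88 in wild type. The atx1 arrays were above the others in both states, with a mean difference from wild type of 3.25 under water deficit and 1.55 with water.

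In whole rosettes, more cells of a type and more RNA per cell cannot be told apart. Over the 14 probe sets whose RefSeq names refer to anthers, pollen, petals, carpels or flowers, 2 of them members (ATA27 and SWEET8), the median difference of atx1 from wild type was 0.22 under water deficit and 0.27 in watered plants, beside 0.01 and 0.04 over all probe sets. It was above 0 for 9 of the 14 under water deficit and for 11 in watered plants. SWEET9, CES and HLL were not among the 14. The words used for this group and for the groups below were chosen after the data had been seen.

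A set of 7 members serves DNA replication, mitosis or the cytoskeleton. PRL (AT4G02060) is a subunit of the helicase that opens DNA at replication origins, POLA3 (AT5G41880) a subunit of the primase that starts new strands, and 3xHMG-box2 (AT4G23800) a protein of mitotic chromosomes. PRL read 7.79 and 6.66 in atx1, 4.28 and 4.42 in MYO-OX and 4.20 and 4.11 in wild type under water deficit. In watered plants it read 7.35 and 8.11 in atx1, 5.17 and 6.36 in MYO-OX and 5.47 and 6.24 in wild type. The atx1 arrays did not overlap the others in either state, and the watered gap, 1.87, was narrower than that under water deficit, 3.08. The gap of 3xHMG-box2 was 3.08 under water deficit and 2.72 with water, and that of POLA3 was 2.78 under water deficit and 1.57 with water.

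The cytoskeletal members were TUB1 (AT1G75780), a beta-tubulin, SP1L5 (AT4G23496), of the SPIRAL1 family of microtubule proteins, WLIM2a (AT2G39900), which bundles actin, and IQD31 (AT1G74690), of a calmodulin-binding family. TUB1 was 2.87 higher in atx1 than in wild type under water deficit and 1.62 higher in watered plants. Under water deficit the difference was 2.95 for WLIM2a, 2.08 for IQD31 and 1.63 for SP1L5, and with water it was 2.19, 1.84 and 1.68 for these genes. SP1L5 read 6.56 and 5.07 in atx1, against 4.29 and 4.07 in wild type, under water deficit. With water it read 6.77 and 5.16 in atx1, against 4.10 and 4.48 in wild type, so in both states atx1 replicate 1 stood much further from wild type than replicate 2. Over the 20 probe sets named for DNA replication, mitosis or tubulin, 4 of them members, the median difference was 0.76 under water deficit and 0.85 in watered plants. It was above 0 for 17 and 18 of the 20.

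Glycoside hydrolases act on cell walls and on glucosides of plant metabolites, and 3 members besides ATA27 belong to them. BGLU44 (AT3G18080) is of the beta-glucosidase family, BGLU45 (AT1G61810) is active on glucosides of lignin precursors, and GH9B13 (AT4G02290) belongs to the endoglucanases. BGLU44 read 10.67 and 8.42 in atx1, 5.62 and 5.88 in MYO-OX and 5.09 and 6.08 in wild type under water deficit. It read 11.56 and 10.70 in atx1, 9.13 and 10.22 in MYO-OX and 9.47 and 9.53 in wild type in watered plants. The gene was bright in every watered group, and its gap from wild type was 3.96 under water deficit and 1.62 in watered plants. GH9B13 read 9.58 and 8.63 in atx1, 5.10 and 5.19 in MYO-OX and 4.84 and 5.73 in wild type under water deficit. Its watered levels were 9.50 and 9.70 in atx1, 6.76 and 7.68 in MYO-OX and 7.47 and 8.55 in wild type, so the gap was 3.82 under water deficit and 1.59 in watered plants. BGLU45 differed by 2.08 under water deficit and 2.26 with water. Over the 38 probe sets named for these hydrolase families the median difference was 0.22 under water deficit and 0.09 in watered plants.

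The plastid genome contributed 5 members: atpA, for a subunit of the ATP synthase, psbB, of photosystem II, ndhK, of the NADH dehydrogenase-like complex, rps4, a ribosomal protein, and rpoC2, a subunit of the plastid RNA polymerase. They made up 4.07% of the members with a locus, and plastid genes were 0.514% of all probe sets with a locus. Over all 69 plastid probe sets, these 5 included, the median difference of atx1 from wild type was 1.17 under water deficit and 0.77 in watered plants, above 0 in 64 and 65. Of the 5, rps4 had the widest gap under water deficit, 3.32, with 13.82 and 13.65 in atx1, 11.71 and 10.39 in MYO-OX and 9.22 and 11.60 in wild type. In watered plants it had 13.71 and 13.37 in atx1, 11.42 and 12.30 in MYO-OX and 10.83 and 11.96 in wild type. Its atx1 arrays lay close together, and the replicates of the other genotypes lay further apart.

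Under water deficit the atx1 replicates of psbB lay further apart than its group means. It read 11.06 and 6.43 in atx1, 8.07 and 6.28 in MYO-OX and 5.44 and 7.06 in wild type under water deficit. The lower atx1 array lay inside the range of the other genotypes. With water it read 9.73 and 8.44 in atx1, 8.60 and 8.03 in MYO-OX and 7.66 and 7.29 in wild type, and there atx1 lay above wild type on both arrays and overlapped MYO-OX. ATP synthase gene atpA read 12.09 and 11.28 in atx1, 11.40 and 9.00 in MYO-OX and 7.93 and 10.93 in wild type under water deficit, so MYO-OX overlapped atx1 there. Of all members, these plastid genes except rpoC2 also had the largest excess of the MYO-OX mean over the wild-type mean reached in both states. Under water deficit it was 0.93 for psbB, 0.60 for ndhK, 0.77 for atpA and 0.64 for rps4, and with water 0.84, 0.87, 0.57 and 0.46 for these genes. The single arrays of MYO-OX and wild type overlapped, in both states for atpA and rps4 and under water deficit for psbB and ndhK.

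The 7 remaining members with a symbol had differences of 1.67 to 2.40 under water deficit and 1.62 to 2.07 in watered plants. THI2.1 (AT1G72260) encodes a thionin, an antimicrobial peptide induced by jasmonate. It read 12.30 and 11.90 in atx1, 10.02 and 8.21 in MYO-OX and 9.46 and 10.15 in wild type under water deficit. With water it read 11.24 and 11.15 in atx1, 9.602 and 10.004 in MYO-OX and 8.85 and 10.10 in wild type. It was bright everywhere and brightest on the atx1 arrays in both states. The gap of bZIP44 (AT1G75390), a transcription factor, was 1.85 under water deficit and 1.79 with water. For ACLA-2 (AT1G60810), of the ATP-citrate lyase that makes cytosolic acetyl-CoA, it was 1.75 under water deficit and 1.86 with water. DPE1 (AT5G64860) is an enzyme of starch breakdown in plastids, CYTC6A (AT5G45040) a cytochrome of the thylakoid lumen and HLL (AT1G17560), or HUELLENLOS, a mitochondrial ribosomal protein needed for ovule growth. Under water deficit their gaps were 1.67, 1.93 and 2.23, and with water 1.86, 1.72 and 1.62. RXF26 (AT1G58430) had a gap of 2.40 under water deficit and 2.07 with water.

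**Figure D3:**
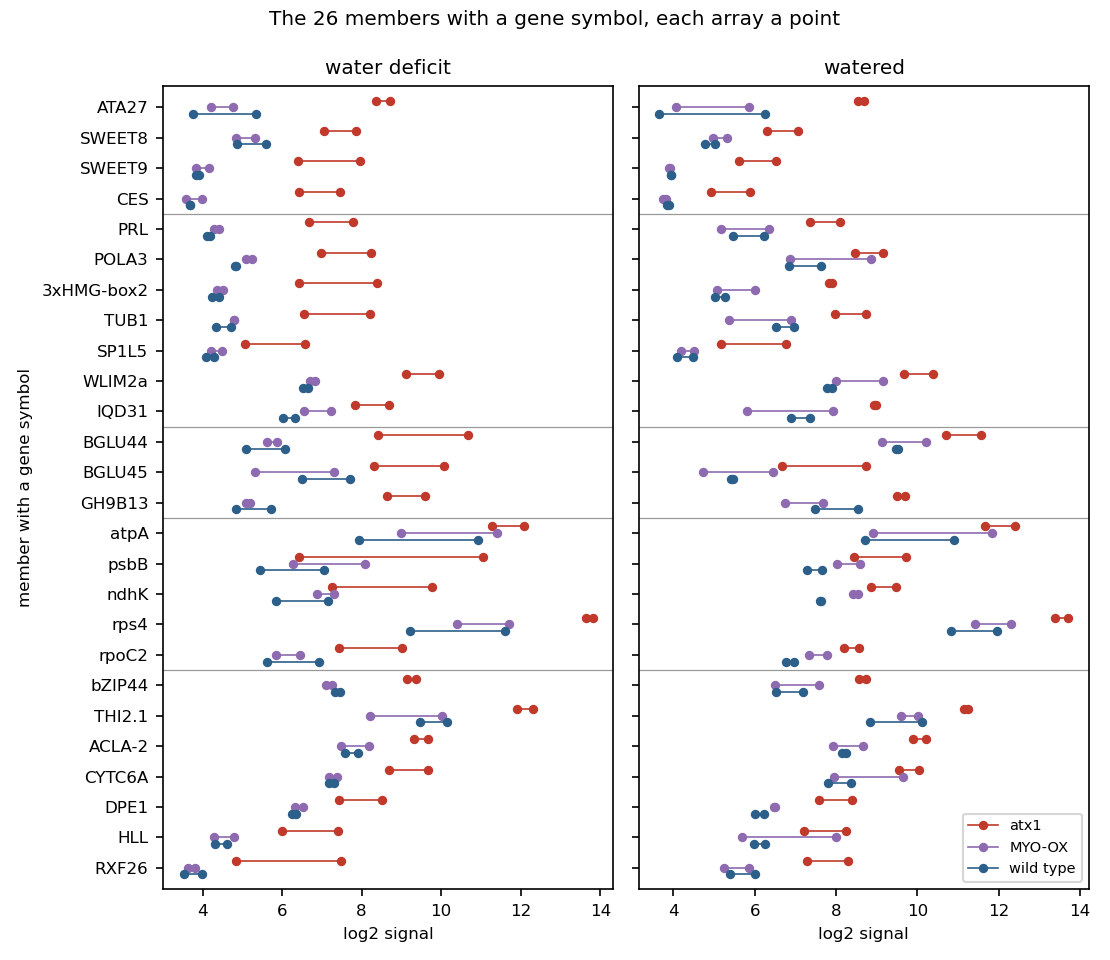
Log2 signal of the 26 members with a symbol on each array, under water deficit on the left and watered on the right, with a line joining the 2 arrays of a group and grey lines between groups of known role. The red atx1 points lie to the right of the blue wild-type points for every gene except psbB under water deficit, and MYO-OX stays mostly with wild type.

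The lists of defence, hormone, chromatin and flowering genes held few measured genes, since many probe sets have no listed gene. THI2.1 was the only member among them, from a jasmonate list with 2 of 14 genes measured. The other, PDF1.2, a defensin gene, differed by 0.11 under water deficit and 0.80 in watered plants. Of the list of Trithorax and Polycomb group genes 1 of 15 was measured, ULT1, and of the flowering MADS-box genes 1 of 16, AGL24. ULT1 differed from wild type in atx1 by 0.86 under water deficit and -0.45 with water, and AGL24 by -0.68 and -0.58 in these states. In MYO-OX under water deficit, 1 gene of each of these 3 lists fell and 0 rose in limma: PDF1.2 by 3.51 (adjusted p = 0.0119), ULT1 by 1.93 (adjusted p = 0.00924) and AGL24 by 1.48 (adjusted p = 0.0228). The remaining lists held no member. Of salicylate defence genes 2 of 19 were measured and 2 fell, of glutathione transferases 2 of 15 and 1 fell, of abscisic acid and dehydration genes 3 of 20 and 3 rose, and of leaf senescence genes 3 of 9, where 2 rose and 1 fell.

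MYO-OX arrays took no part in choosing the members, although the wild-type arrays they are set against did, so this comparison too is a description. The median difference of MYO-OX from wild type over the members was 0.04 under water deficit (range -1.80 to 0.93), beside 0.03 over all probe sets. In watered plants it was 0.03 (range -2.02 to 3.76), beside 0.01 over all probe sets. The MYO-OX mean was nearer to wild type than to atx1 for all 243 members under water deficit and for 236 in watered plants. The rule sets atx1 at least 1.5 above wild type, which favours these 2 counts, and nothing is read from them. Both MYO-OX arrays stood above both wild-type arrays for 41 members (16.9%) under water deficit, against 13.7% of all probe sets. In watered plants they did so for 31 (12.8%), against 11.1%, and in both states for 7 (2.88%), against 1.57%. They stood below for 24 members under water deficit, against 10.1% of all probe sets, and for 28 in watered plants, against 11.4%. Apart from the 7 in both states, these shares were near those of all probe sets. The rule favours low wild-type arrays and so an excess of MYO-OX over them, and nothing is read from the 7.

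Both atx1 arrays were above both MYO-OX arrays for 239 members under water deficit, against 29.1% of all probe sets. They were above for 228 in watered plants, against 18.7%, and for 227 in both states, against 9.91%. In 225 members atx1 stood above both other genotypes in both states, against 7.92% of all probe sets. The atx1 arrays in these counts also chose the members. The rule thus favours high counts, and nothing is read from them.

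Only 3 members had a MYO-OX mean at least 1.5 above wild type in watered plants, AT5G62360, 265478_at and AT1G02813, and 0 did under water deficit. The last 2 were named after their values were seen. AT5G62360 read 10.39 and 9.27 in watered MYO-OX, close to watered atx1 at 11.05 and 9.71 and apart from wild type at 5.99 and 6.15. Under water deficit it read 4.02 and 5.13 in MYO-OX, like wild type at 4.52 and 4.90, whereas atx1 had 9.79 and 8.01. This member was thus high in both lines with water and high only in atx1 without it. The excess of MYO-OX over wild type in watered plants was 3.76 for AT5G62360, 1.81 for 265478_at and 1.61 for AT1G02813.

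The change of MYO-OX under water deficit is a difference between MYO-OX arrays, none of which chose the members. It was tested with limma over all 22746 probe sets, with Benjamini-Hochberg adjustment and a spread estimated from all 12 arrays, so the standard errors and calls also draw on the atx1 and wild-type arrays that chose the members. Under water deficit 28 members fell in MYO-OX (11.5%), against 14% of all probe sets. A further 8 rose (3.29%), against 10.7% of all probe sets. The share that fell was near that of all probe sets, and the share that rose was smaller. The rule favours members that did not rise in wild type, and all 8 that rose in MYO-OX had a positive wild-type response. The smaller share that rose is thus not independent of the rule. In a fit to the 4 MYO-OX arrays alone 10 fell and 0 rose, with 49 and 20 at an unadjusted p under 0.05. Without MYO-OX water-deficit replicate 1 or 2 the count that fell was 13 or 10. The count that rose was 4 without either replicate 1, watered or water deficit, and 2 without water-deficit replicate 2.

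The largest fall in MYO-OX was that of AT5G62360, by 5.26 (SE 0.69, adjusted p = 0.00153), or 38.2-fold. AT5G33370, named by locus, read 4.17 and 4.61 in MYO-OX under water deficit, against 8.47 and 8.46 in watered MYO-OX, and fell by 4.08 (SE 0.57, adjusted p = 0.00204). It read 9.97 and 7.77 in atx1 under water deficit, against 10.35 and 10.36 watered, and 4.12 and 4.48 in wild type under water deficit, against 8.55 and 8.74 watered. MYO-OX and wild type were thus low without water and bright with it. In atx1 the watered arrays nearly coincided and the water-deficit arrays lay apart, with a mean change of -1.48 that did not pass the test (limma adjusted p = 0.247). BGLU44 fell by 3.92 (SE 0.71, adjusted p = 0.00587) and AT5G54970 by 3.79 (SE 0.88, adjusted p = 0.0161) in MYO-OX.

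Of the members for replication and the cytoskeleton, POLA3 fell in MYO-OX by 2.70 (limma adjusted p = 0.0185) and WLIM2a by 1.81 (adjusted p = 0.015), while PRL (-1.41), TUB1 (-1.34), 3xHMG-box2 (-1.10), SP1L5 (0.02) and IQD31 (0.01) did not pass the test. GH9B13 fell by 2.07 (adjusted p = 0.0178). ATA27, SWEET8, SWEET9 and CES did not pass in MYO-OX, with changes of -0.48 to 0.09, nor did the plastid genes, with changes of -1.41 to -0.18, or any of the remaining 7 with a symbol, HLL (-2.32) among them. The largest rises were those of probe sets without a listed gene: 264146_at by 2.46 (adjusted p = 0.0112), 257896_at by 1.35 (adjusted p = 0.0428), 254618_at by 1.33 (adjusted p = 0.0243) and 254716_at by 1.32 (adjusted p = 0.00645). The falls of AT5G62360, AT5G33370 and BGLU44 passed in each of 11 alternatives. Every other named member called in MYO-OX missed the threshold in 1 to 5 of them, with the same direction.

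Wild-type and atx1 arrays also responded to water, although both took part in choosing the members. In wild type 23 members fell, against 10.7% of all probe sets, and 11 rose, against 8.96%. Of the 28 members that fell in MYO-OX, 18 fell in wild type, where 66.4% of all probe sets that fell in MYO-OX did, and all 28 had a negative wild-type response, with medians of -2.35 in MYO-OX and -1.96 in wild type. TUB1 and PRL passed in wild type and not in MYO-OX, and fell there by 2.22 (limma adjusted p = 0.0369) and by 1.70 (adjusted p = 0.0461). Left-out arrays moved the wild-type counts: without watered replicate 1, water-deficit replicate 1 or water-deficit replicate 2, 9, 4 or 12 fell and 1, 3 or 3 rose.

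In atx1 0 of those 28 passed as lower, against 7.26% of all probe sets that fell in MYO-OX and 1.09% of all probe sets. The rule asks that atx1 stay well above wild type under water deficit, which favours a small fall in atx1, so nothing is read from this count. Their median response there was -0.91 (range -1.68 to 0.31), negative in 25, and their median level under water deficit was 8.86 in atx1, against 5.32 in MYO-OX and 5.26 in wild type. With water the medians were 9.85 in atx1, 8.10 in MYO-OX and 7.84 in wild type. The median gap between atx1 and wild type over the 28, BGLU44, GH9B13, POLA3 and WLIM2a among them, was 2.999 under water deficit and 1.75 with water. A response that passed in MYO-OX and not in atx1 is not a test of the difference, and the difference of these responses was not tested.

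**Figure D4:**
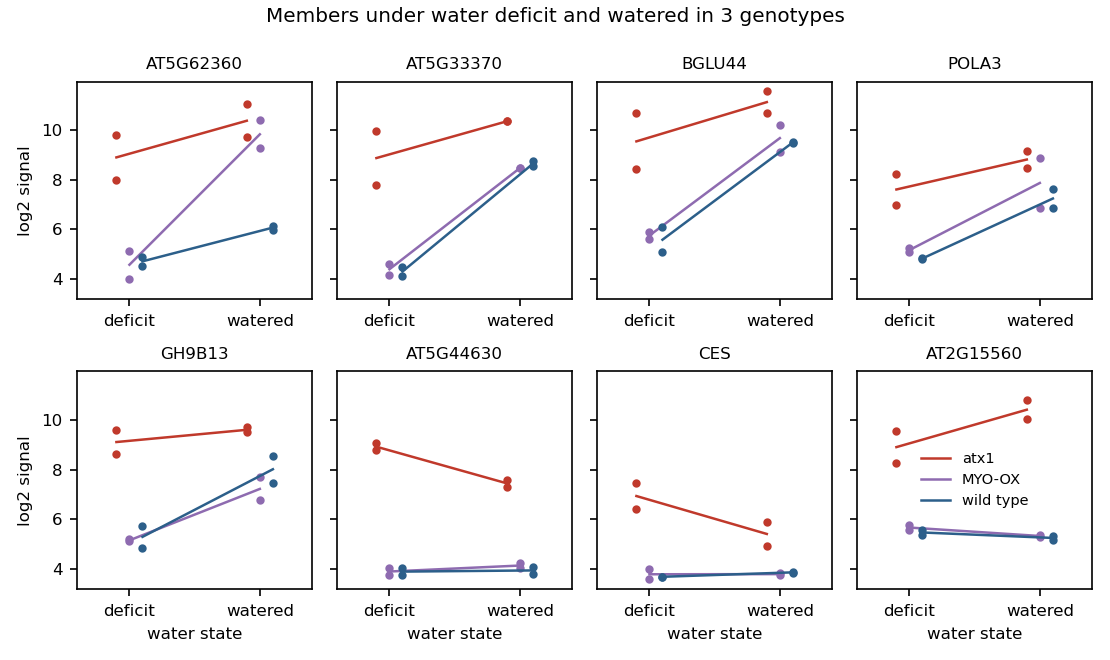
Log2 signal of 8 members under water deficit and watered, with each array as a point and lines through the group means. AT5G33370, BGLU44, POLA3 and GH9B13 are low without water in MYO-OX and wild type and higher in atx1, AT5G62360 is high in watered MYO-OX, and AT5G44630 and CES are near 4 outside atx1.

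In atx1 itself 15 members rose under water deficit (6.17%), against 2.1% of all probe sets, and 1 fell, against 1.09%. The member that fell, AT5G62710, was named after its value was seen and changed by -1.42 (limma adjusted p = 0.0426). Of the 15, 14 passed as higher in neither other genotype, against 23.5% of the 477 probe sets that rose in atx1, and AT1G25530 rose in MYO-OX also. The rule favours members that did not rise in wild type, so nothing is read from this count. Their median response was 1.75 in atx1 (range 1.15 to 2.92), 0.16 in MYO-OX and 0.02 in wild type, and 8 of them lay in the lowest 25% of probe sets in wild type in both states. AT5G44630 rose by 1.48 (SE 0.21, adjusted p = 0.00909). Among the others, AT3G07820 read 8.14 and 7.90 under water deficit, against 5.39 and 5.08 watered, and rose by 2.78 (adjusted p = 0.00048). AT4G12890 read 8.23 and 8.05, against 6.0 and 5.35 watered, and rose by 2.47 (adjusted p = 0.004). Both were chosen after their values were seen, and neither exceeded 4.23 on any MYO-OX or wild-type array. None of the 15 had a symbol. Since the rule asks for a wide gap under water deficit, a high share of members that rose in atx1 is not independent of it. The count that rose was 7, 8 and 9 without watered replicate 1, watered replicate 2 and water-deficit replicate 2, and the count that fell was 0, 0 and 6 without watered replicate 1, watered replicate 2 and water-deficit replicate 1.

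Of the 243 members, 183 (75.3%) passed the test in none of the 3 genotypes, and 71.9% of all probe sets passed in none. The response of ATA27 was -0.06 in atx1, -0.48 in MYO-OX and -0.40 in wild type, and that of AT1G02300 was 0.15 in atx1, -0.54 in MYO-OX and 0.31 in wild type. In each of the 3 genotypes 76 members (31.3%) had an unadjusted p under 0.05 in limma, against 15.7% of all probe sets in atx1, 36.6% in MYO-OX and 31.8% in wild type. The atx1 arrays took part in choosing the members, so the larger share in atx1 is not independent of the rule.

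Replicates of wild type differed for some members in the same sense in both water states. Wild-type replicate 2 stood at least 1 above replicate 1 in both states for 21 members (8.64%), against 0.264% of all probe sets. The reverse held for 0 members, against 0.04% of all probe sets. These wild-type arrays took part in choosing the members, so the shares are not independent of the rule. The 21 included ATA27, rps4, atpA, AT2G35820, 250610_at, 246380_at, 249227_at and 252063_at. Replicate 2 was also the higher in both states of atx1 for 9 of them and of MYO-OX for 12, and among all 60 such probe sets for 26 in atx1 and 26 in MYO-OX. AT2G35820 read 9.56 and 10.61 in atx1 and 4.83 and 7.14 in wild type under water deficit, and 8.98 and 9.40 in atx1 and 4.89 and 6.48 in wild type with water. The largest such gap among the 15 members whose smaller difference was largest was that of 246380_at, at 11.41 and 10.17 in atx1 and 3.72 and 7.03 in wild type under water deficit, and 11.38 and 10.52 in atx1 and 5.30 and 9.31 in wild type with water. For these members the distance from wild type depends on which wild-type array it is taken from.

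The members with a locus were spread over all chromosomes. Chromosome 1 held 34.1% of them, against 25.7% of all probe sets with a locus, and chromosome 3 held 13.0%, against 20.4%. Chromosome 2 had 11.4%, against 16.4%, chromosome 4 had 14.6%, against 14.6%, and chromosome 5 had 22.8%, against 22.4%. Among 118 nuclear loci 0 pairs were adjacent genes, and 4 pairs had at most 10 genes between them. The closest was WLIM2a and AT2G39920, with 1 gene between. THI2.1 lay 3 genes from AT1G72290 and 10 from AT1G72160, and ATA27 lay 9 from AT1G75880. AT1G75880 read 7.54 and 7.90 in atx1, 4.15 and 4.05 in MYO-OX and 3.78 and 4.35 in wild type under water deficit, and its gap was 3.66 there and 2.30 in watered plants. Under water deficit the gap was 2.67 for AT2G39920, 2.57 for AT1G72290 and 2.18 for AT1G72160, and with water 3.12, 1.90 and 1.65 for these genes.

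The threshold fell in a continuous run of values. Just inside it, the smaller difference was 1.503 for 264146_at, 1.502 for 246114_at and 1.5004 for 250228_at. Just outside, it was 1.496 for 257233_at, 1.491 for 261660_at and 1.487 for CHL. The arrays of 246114_at were spread as widely as its groups stood apart, at 10.14 and 12.16 in atx1, 9.38 and 10.74 in MYO-OX and 10.07 and 9.22 in wild type under water deficit.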

How the data were processed

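Log2 signals per probe set were used as the authors deposited them. They were made by RMA (robust multi-array averaging), per the submitters' processing notes, and the RMA version and the set of arrays it was run on are not given in the sources used here. Setting 64 controls apart from 22810 probe sets left 22746. Probe sets were named through the platform annotation and RefSeq (TAIR10.1 assembly). Of all those tested, 8730 were not listed there.

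Group means were compared to find the members. In R 4.3.3 with limma 3.58.1, a model with a mean for each group was fitted to the 12 arrays (6 residual and 2.34 prior degrees of freedom), and the response to water deficit was tested in each genotype with two-sided p-values, Benjamini-Hochberg adjusted over 22746 probe sets and called at an adjusted p under 0.05. The procedure was tested on simulated data. The members and lists were chosen with earlier results of these data known. By rule, the text names the 15 members with the largest smaller difference, those with a symbol, the 4 largest called rises and falls in MYO-OX, members within 10 genes of each other, the 3 nearest the threshold on each side, and the 4 whose smaller excess of MYO-OX over wild type, of both water states, was largest. P-values measure the spread between labelled biological replicates.

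Deviations of same-numbered arrays correlated at 0.499 in atx1, 0.208 in MYO-OX and 0.0828 in wild type between water states. Nothing in the labels says that a number marks a shared batch, so the numbers were not taken to pair the arrays. Alternatives were the replicate block, median centring, repeated quantile normalization, the dimmest 40% left out, another prior, a fit to the 4 arrays compared alone, 1 probe set for each gene, other thresholds and each array left out. No sequences were used here.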

Additional observations from a re-analysis of the deposited data

Results flagged for a closer look

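For a few members the arrays of 1 genotype all moved one way under water deficit while those of another all moved the opposite way. These differences were not tested. Such opposite moves also occurred among all probe sets. Higher atx1 arrays and lower wild-type arrays under water deficit were seen in 363 of the 22746 and in 6 of the 243 members. Lower atx1 and higher wild-type arrays were seen in 432 and in 2 members. Higher atx1 and lower MYO-OX arrays were seen in 259 and in 6 members, and the reverse in 334 and in 2. Lower MYO-OX and higher wild-type arrays were seen in 114 and in 3 members. The atx1 and wild-type arrays chose the members, so nothing is read from these counts. AT2G15560 was lower on every atx1 array under water deficit (-1.51) and higher on every MYO-OX (0.34) and wild-type array (0.22). CES was higher in atx1 (1.53) and lower in wild type (-0.18). AT1G50290 was higher in atx1 (0.80) and lower in MYO-OX (-0.70), and wild type (0.26) also opposed MYO-OX. AT5G44630 was higher in atx1 (1.48) and lower in MYO-OX (-0.24). Of these responses, limma called only that of AT5G44630 in atx1.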

How the results depend on the processing

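The counts of called members depended on single arrays, with 2 in each group, and a lone array left in a group was assumed to vary like the others. The causes were not tested. The rule gave 368 members at the looser threshold tried and 107 at a threshold of 2, and between 229 and 273 with an array left out. With an array left out, 198 to 237 of the 243 members were kept, so the members changed as well as their number. Median centring gave 191, repeated quantile normalization 223 and leaving out the dimmest 40% of probe sets 185. With the replicate block, 13 members rose and 40 fell in MYO-OX, 22 rose and 3 fell in atx1, and 14 rose and 34 fell in wild type, so the block added calls. Median centring let 14 rise in MYO-OX, and without the dimmest probe sets 5 rose in atx1. With only the 4 arrays of the comparison in limma, 0 rose and 10 fell in MYO-OX, 0 rose and 0 fell in atx1 (54 and 15 at an unadjusted p under 0.05), and 50 fell in wild type. For the 0 that rose in MYO-OX, 20 had an unadjusted p under 0.05. With each array left out in turn, 2 to 9 rose and 10 to 39 fell in MYO-OX, 1 to 11 rose and 4 to 17 fell in wild type, and 7 to 12 rose and 0 to 6 fell in atx1. Members with MYO-OX above wild type numbered 65 to 117 under water deficit and 65 to 98 in watered plants, since fewer arrays overlap less. Among the named members whose MYO-OX response limma called, no response changed direction in 11 alternatives. Other named responses were not followed through them.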
